A study of Mus musculus with 2 samples.

Results

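Isolated peaks are accessible regions that stand alone in the genome. They were chosen by their measured positions: a peak on chromosomes 1 to 19 was a member when the gap to the previous peak and the gap to the next peak of the same chromosome both exceeded 100 kb. The rule found 978 members among 85553 autosomal peaks (1.14%), from a deposited list of 87174 peaks. Single-nucleus ATAC-seq, in which a transposase tags open DNA in barcoded nuclei, was performed on wild-type embryonic mouse striatum at E14.5, with the strain background labelled C57BL/6J and CD1. The design has 1 group of 2 libraries and no other genotype, treatment or age. Whether the libraries came from separate embryos or pooled tissue is not stated in the labels. The series is titled for Dlx1/2-dependent Meis2 expression and neuronal fate. The 2 libraries share 1 peak list that holds positions in mm10 and nothing else, so there is no value per sample, no read depth and no replicate error for anything below. The list also holds no cells or counts, so the labelled tissue could not be checked against marker levels. Intervals of shares are exact 95% binomial (Clopper-Pearson) intervals and cover the counting of peaks or genes only. The 95% interval of the median width was read from the sorted widths at binomial ranks.

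Open chromatin in a tissue falls mostly at promoters, which are often rich in CG dinucleotides and open in many cell types, and at distal enhancers, which tend to be open in fewer cell types and to cluster around the genes they control. Between clusters of genes lie gene deserts, long stretches with few or no genes, and many large genes for synaptic adhesion and ion channels in neurons border such deserts or have very long introns. Families such as the olfactory receptors, which are expressed mainly in the nose, also occupy long genomic clusters.

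Promoter sequences under isolated peaks show what kinds of gene start these peaks cover, and 6 are shown here. Each runs from 250 bases before to 50 bases after a RefSeq start (assembly GRCm38.p6), 5′ to 3′ on the gene's strand, with every CG dinucleotide in capitals. St8sia4, which encodes an enzyme that adds polysialic acid to a neural adhesion molecule, lies under the widest isolated peak over a listed protein-coding start (chr1:95667545-95667844, minus strand). Zfp804a, a zinc finger gene, has a CG-dense promoter (chr2:82053408-82053707, plus strand). Fgf10, a growth factor ligand of lung and limb development, has a promoter that is GC-rich but holds fewer CG dinucleotides (chr13:118714449-118714748, plus strand). Gabrg1, a subunit of the GABA-A receptor, is shown because its promoter had the fewest CG dinucleotides of the promoters wholly under an isolated peak at a gene of the lists described below (chr5:70842568-70842867, minus strand), and it was added after values were seen. Dcaf6 (chr1:165460414-165460713, minus strand) and Mpc2 (chr1:165461010-165461309, plus strand) start in opposite directions under 1 isolated peak.
St8sia4: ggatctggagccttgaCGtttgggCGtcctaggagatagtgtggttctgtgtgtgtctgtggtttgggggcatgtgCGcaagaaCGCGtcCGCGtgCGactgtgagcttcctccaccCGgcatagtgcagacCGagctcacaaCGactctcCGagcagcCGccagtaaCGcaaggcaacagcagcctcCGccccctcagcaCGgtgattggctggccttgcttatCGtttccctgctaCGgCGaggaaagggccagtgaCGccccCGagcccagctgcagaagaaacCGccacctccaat
Zfp804a: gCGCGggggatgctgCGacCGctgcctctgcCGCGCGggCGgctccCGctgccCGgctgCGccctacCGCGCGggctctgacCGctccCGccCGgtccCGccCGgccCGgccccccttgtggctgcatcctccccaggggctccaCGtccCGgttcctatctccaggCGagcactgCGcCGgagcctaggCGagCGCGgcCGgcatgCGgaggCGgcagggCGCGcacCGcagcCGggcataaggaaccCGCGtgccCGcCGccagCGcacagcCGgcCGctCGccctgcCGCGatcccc
Fgf10: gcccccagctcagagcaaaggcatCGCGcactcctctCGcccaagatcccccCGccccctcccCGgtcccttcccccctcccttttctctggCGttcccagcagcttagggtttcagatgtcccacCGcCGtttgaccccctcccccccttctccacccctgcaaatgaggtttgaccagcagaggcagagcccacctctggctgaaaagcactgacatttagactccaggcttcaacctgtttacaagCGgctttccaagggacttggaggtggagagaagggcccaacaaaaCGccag
Gabrg1: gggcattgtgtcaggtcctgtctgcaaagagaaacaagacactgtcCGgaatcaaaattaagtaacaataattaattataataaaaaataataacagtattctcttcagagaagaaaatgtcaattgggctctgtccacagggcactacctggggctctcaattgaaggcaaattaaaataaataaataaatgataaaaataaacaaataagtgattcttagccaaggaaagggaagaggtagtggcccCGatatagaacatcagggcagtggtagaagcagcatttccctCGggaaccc
Dcaf6: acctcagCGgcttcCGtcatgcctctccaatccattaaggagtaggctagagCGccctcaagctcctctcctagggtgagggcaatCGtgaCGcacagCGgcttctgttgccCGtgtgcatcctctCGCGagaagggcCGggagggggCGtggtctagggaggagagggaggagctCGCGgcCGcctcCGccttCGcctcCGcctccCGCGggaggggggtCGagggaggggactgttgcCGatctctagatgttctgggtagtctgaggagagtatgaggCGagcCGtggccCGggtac
Mpc2: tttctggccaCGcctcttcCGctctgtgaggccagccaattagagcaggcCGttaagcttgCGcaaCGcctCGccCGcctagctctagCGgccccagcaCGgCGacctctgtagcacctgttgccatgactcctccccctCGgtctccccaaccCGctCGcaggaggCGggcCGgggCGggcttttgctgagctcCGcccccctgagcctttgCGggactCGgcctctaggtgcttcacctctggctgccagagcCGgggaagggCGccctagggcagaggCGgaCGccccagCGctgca

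These sequences differ widely in composition. The Zfp804a promoter held 45 CG dinucleotides at a GC content of 79.3%. The St8sia4 promoter held 22 at 61.3%, and those of Dcaf6 and Mpc2 held 24 each at 65.3% and 68.7%. The Fgf10 promoter held 10 at a GC content of 60.7%, close to that of St8sia4. The Gabrg1 promoter held 3 at 38.3%. A promoter was called CpG-rich when its GC content was at least 50% and its observed-to-expected CG ratio at least 0.6. By this definition St8sia4, Zfp804a, Dcaf6 and Mpc2 were CpG-rich, and Fgf10 (ratio 0.394) and Gabrg1 (ratio 0.276) were not.

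Isolated peaks were narrow. The median width was 439 bp, with quartiles of 293 and 712 bp, and the interval for the median was 418 to 459 bp. The other 84575 autosomal peaks had a median of 567 bp (quartiles 364 and 1139 bp). Peaks over 1000 bp made up 154 of the 978 members (15.7%, interval 13.5 to 18.2%) and 29.1% of the other peaks. Peaks over 2000 bp made up 40 members (4.09%) and 9.34% of the others. Very narrow calls were no more frequent: 16 members (1.64%) and 1.61% of the others were under 20 bp. The median width of isolated peaks was below that of the other peaks on 19 of 19 autosomes, with medians between 373 and 513 bp. Width did not enter the rule, but members and other peaks come from the same single list, so these differences are described and not tested.

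**Figure D1:**
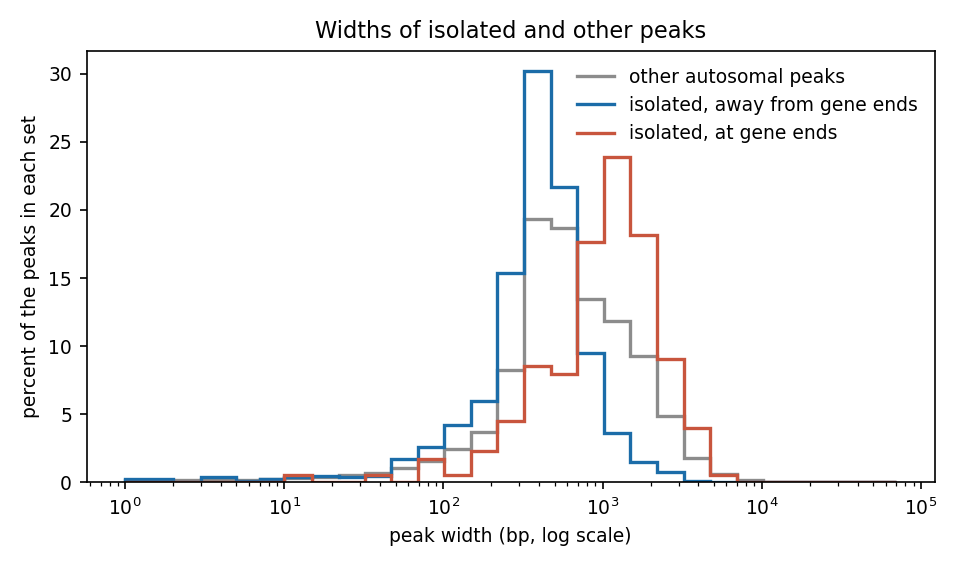
Peak width in bp on a log axis against the percent of the peaks in each set, as step histograms for isolated peaks at gene ends, isolated peaks away from gene ends and all other autosomal peaks. Isolated peaks away from gene ends (n = 802) had a median of 401 bp and those at gene ends (n = 176) 1136.5 bp. The median of the other peaks, 567 bp, lay between these medians, and the distributions overlap.

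The members differed in width by position. A gene-end peak overlaps, by at least 1 bp, the 1000 bp on either side of an annotated end of a gene. The 176 isolated peaks at gene ends had a median width of 1136.5 bp (quartiles 650.75 and 1710 bp), against 1415 bp for other gene-end peaks. The 802 isolated peaks away from gene ends had a median of 401 bp (quartiles 267 and 568 bp), against 491 bp for other peaks away from ends. At protein-coding starts, 92 isolated peaks had a median of 1277 bp and the other 10930 peaks a median of 1707 bp. Members inside protein-coding genes had a median of 412 bp (n = 141), those inside genes of other classes alone 385 bp (n = 43), and those between genes 401 bp (n = 618). Median width was thus higher at gene ends than at every other position, while the 3 other positions differed little. Among gene-end members, the 135 at protein-coding ends had a median of 1288 bp. The 21 at ends of long non-coding RNA genes but at no protein-coding end had 595 bp. The histogram of widths shows that the distributions at gene ends and away from them overlap.

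Most isolated peaks lay between genes. Of the 978 members, 618 (63.2%, interval 60.1 to 66.2%) touched no annotated gene or gene end, against 28.6% of the other autosomal peaks. Only 141 (14.4%, interval 12.3 to 16.8%) lay inside a protein-coding gene away from its ends, against 42.2% of the others. Another 43 (4.40%) lay inside a gene of another class alone, against 5.89%. The median distance to the nearest protein-coding gene end was 215 kb for members and 21.0 kb for the others. A long distance to genes is partly fixed by a rule that asks for empty flanks, since peaks gather at genes.

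Gene ends took a smaller share of isolated peaks than of peaks in general. They held 176 members (18%, interval 15.6 to 20.5%), against 23.2% of all autosomal peaks. Ends of protein-coding genes held 135 members (13.8%, interval 11.7 to 16.1%), against 17.2% of all autosomal peaks. The gene-end share was lower in members than in the other peaks of the same chromosome on 16 of 19 autosomes, and ranged from 11.1 to 34.4% between chromosomes. The other peaks were also weighted to the members' widths over 10 width classes, a choice made after seeing the data. Their share was then 16.8%, inside the interval of the members' 18%, so it shows no order. For protein-coding ends the weighted share was 11.2%, below the interval of the members' 13.8%. Whether width accounts for the lower share was not tested. The weighted value is an average over widths, and the order differed between width classes.

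The share was lower in isolated peaks in the classes under 500 bp and higher in those above. The other peaks lay outside the members' interval only at 200 to 500 bp and at 1000 to 2000 bp, so the other classes show no order. It was 6.25 and 8.07% under 20 bp and 6.09 and 7.70% from 20 to 200 bp, with the other peaks inside the members' intervals. Among peaks of 200 to 500 bp, 25 of 439 isolated peaks (5.69%, interval 3.72 to 8.29%) lay at a gene end, against 9.10% of the others. Among peaks of 500 to 1000 bp the shares were 16.1% (interval 11.8 to 21.3%) and 14.2%. Among peaks of 1000 to 2000 bp, 71 of 114 isolated peaks (62.3%, interval 52.7 to 71.2%) lay at a gene end, against 45.9% of the others. From 2000 bp upward it was 31 of 40 (77.5%, interval 61.5 to 89.2%) and 69.1%. A wide isolated peak was thus mostly a gene-end peak, and a narrow isolated peak seldom was.

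The share at gene ends did not fall steadily with distance to the next peak. By the smaller of a peak's 2 gaps it was 24.8% up to 1 kb, 21.6% over 1 to 5 kb, 23.8% over 5 to 20 kb, 25.7% over 20 to 50 kb, 22.1% over 50 to 100 kb and 18% in isolated peaks. The share between genes rose at each step, from 21.4 to 26.2, 30, 35.5, 48.2 and 63.2%. The nearest class, with gaps over 50 to 100 kb, held 2506 peaks with a median width of 484 bp. Among the members, the gene-end share was 21.6% in the 245 with the smallest gaps (interval 16.6 to 27.3%) and 12.7% in the 245 with the largest (interval 8.76 to 17.5%).

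**Figure D2:**
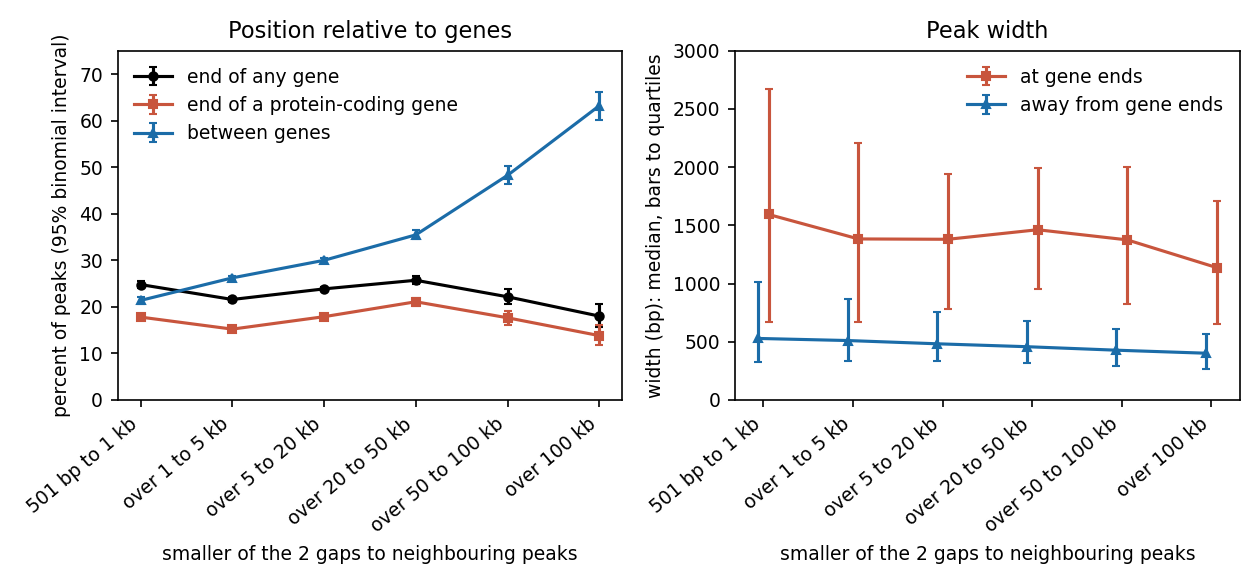
Left, percent of autosomal peaks at the end of any gene, at the end of a protein-coding gene and between genes, by the smaller of the 2 gaps to neighbouring peaks, with 95% binomial intervals. Right, median width in bp with bars to the quartiles, at gene ends and away from them: the between-gene share reaches 63.2% in peaks with gaps over 100 kb, and the median width away from ends is lowest there (401 bp).

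The gaps themselves, which the rule used, are given as a description. The smaller gap of a member had a median of 143 kb and reached 1552.89 kb. Just inside the limit were a peak at an end of Slc9a2, a sodium-proton exchanger (100.345 kb, width 1781 bp), and the peak shared by the starts of Cep290 and Tmtc3 (100.464 kb, 1703 bp). Just outside were peaks between genes near Sim1 (99.901 kb, 802 bp), Armh4 (99.791 kb, 560 bp) and Robo2 (99.79 kb, 807 bp). Members often followed each other: 422 had no isolated neighbour, 262 formed 131 pairs, and the longest run held 9 consecutive isolated peaks.

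The longest runs, named after their values were seen, lay in gene-poor stretches. A run of 9 isolated peaks extended over 2.71 Mb (chr4:36950034-39660988), from the start of Lingo2, a leucine-rich repeat protein of neurons, outward. Its widest peak, 2160 bp, was the one at the Lingo2 start, and the median of the run was 450 bp. A run of 7 extended over 2.03 Mb (chr10:47102539-49131752), with 6 peaks between genes and 1 inside Grik2, a kainate-type glutamate receptor subunit. Its peaks were alike in width, from 415 to 546 bp. A run of 6 lay within 1.40 Mb beside Kcnt2, a sodium-activated potassium channel (chr1:140531532-141927088), with 5 peaks between genes. The other runs of 6 lay beside Sis, the intestinal sucrase-isomaltase (chr3:71757282-72791111), and around Tram1l1 and Ndst4 (chr3:124587540-125679360).

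The largest smaller gap belonged to a peak of 438 bp at a pseudogene, Gm13736 (chr2:87526017-87526455), with empty flanks of 1552.89 and 2868.48 kb. The stretch between its neighbouring peaks held 196 whole protein-coding genes, of which 194 were olfactory receptors. The second was a peak of 598 bp between genes on chromosome 12 (chr12:23189412-23190010), with flanks of 1032.62 and 1280.91 kb. The third was also the widest member, 6280 bp at chr17:39842773-39849053, and lay over AY036118 and Rn18s-rs5, annotated as a long non-coding RNA and a pseudogene related to ribosomal RNA. No source used here gives how reads that match several genomic copies were treated, and the part of copied sequence in this peak was not tested. Others among the 10 most isolated lay inside Klra1, a receptor of natural killer cells (68 bp), at the start of Smim10l1 (1352 bp) and at the start of Zfp317, a zinc finger gene (947 bp). Further ones lay between genes more than 1 Mb from Tmeff2 (454 bp) and Cntnap5a (508 bp).

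Of the 10 widest members, 9 lay at gene ends, 7 of them at protein-coding genes. After the peak over AY036118, the widest lay at Pappa (4564 bp, chr4:65123058-65127622), a protease that releases insulin-like growth factors, and at St8sia4 (4341 bp, chr1:95664442-95668783). They were followed by Csmd3, a large membrane protein (4221 bp, chr15:48789543-48793764). Lrrc7, which encodes the postsynaptic scaffold densin, had a peak of 3752 bp, and Rspo3, a secreted enhancer of Wnt signalling, one of 3683 bp. Edil3, a secreted integrin ligand, had 3309 bp, and Fam155a, an accessory subunit of a sodium leak channel, 3106 bp. The long non-coding RNA 1110015O18Rik had 3330 bp. Of the 10 widest, 1 touched no gene: a peak of 4107 bp at chr14:19415599-19419706, 114 kb from Gm2244. The 5 narrowest members were 1 to 3 bp wide, and all lay away from gene ends, among them 1 inside Pcdh15.

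Isolated peaks at gene ends lay mostly at starts. Where strand was known, 100 of 106 protein-coding gene ends under an isolated peak were starts (94.3%, interval 88.1 to 97.9%), against 77.4% of those under other peaks. This share is partly fixed by the rule. In a gene well under 100 kb long, a separate peak at the start bars an isolated peak at the far end. A further 45 ends had no strand in the table used. Peaks shared by neighbouring genes were present: 14 of 135 isolated peaks at protein-coding ends (10.4%, interval 5.79 to 16.8%) reached ends of at least 2 protein-coding genes, against 16% of other peaks, which lies within that interval. Such pairs included Dcaf6, a ubiquitin ligase adaptor, with Mpc2, a subunit of the mitochondrial pyruvate carrier (2696 bp). Others were Pdcd10 with Serpini1, the latter encoding neuroserpin (2488 bp), Odr4 with Tpr, a nuclear pore protein (1841 bp), and Esf1 with Ndufaf5, an assembly factor of respiratory complex I (1483 bp).

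The genes with an isolated end peak were few. Of 20558 autosomal protein-coding genes, 14180 (69%) had a peak of any kind at an end and 149 (0.725%) had an isolated one. In 112 of the 149, no more than 1 peak touched the whole gene span. The rule partly fixes this count, because in a gene well under 100 kb long a second peak would lie too near. The 149 genes were long, with a median of 76.7 kb, against 22.5 kb for genes with only other end peaks and 7.90 kb for genes with none. Their nearest protein-coding neighbour lay a median of 27.0 kb away, against 2.63 kb for genes with other end peaks, and 47 of 149 (31.5%, interval 24.2 to 39.7%) stood more than 100 kb from any other protein-coding gene, against 4.18%. Distance to neighbours is partly fixed by the rule, because neighbouring genes bring peaks of their own.

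The share of genes with an isolated end peak rose with gene length. It was 0.234% under 10 kb, 0.502% at 10 to 50 kb, 1.22% at 50 to 200 kb, 4.39% at 200 to 500 kb and 5.09% from 500 kb upward. An isolated peak anywhere in the span was present in 248 of the 20558 genes (1.21%), and by length the share went from 0.234 to 0.619, 1.46, 8.50 and 28.2%. Whether the number of peaks in longer spans accounts for this rise was not tested. For end peaks of genes longer than 100 kb, the empty flank that the rule asks for on the gene's side lies within the gene. The part of this in the rise at ends was not tested either.

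**Figure D3:**
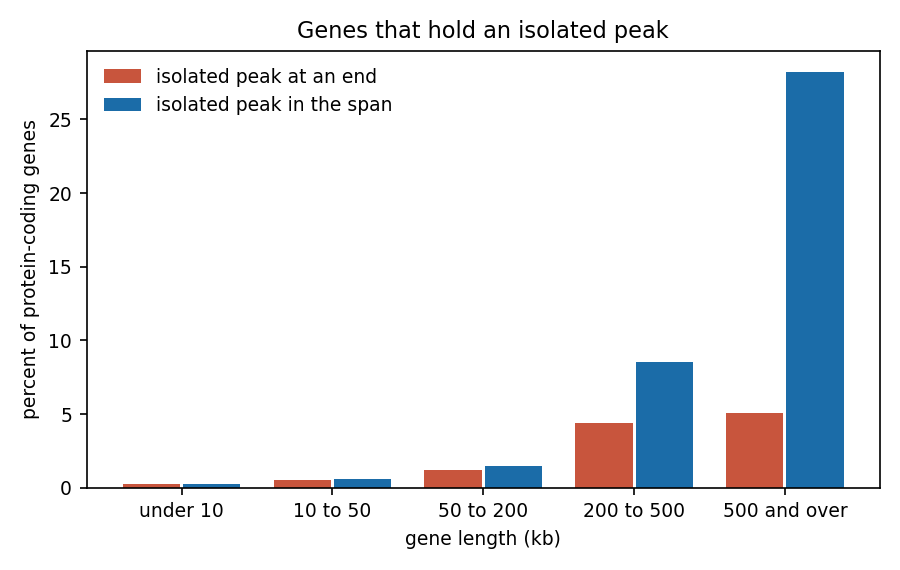
Percent of autosomal protein-coding genes with an isolated peak at an end and with an isolated peak in the span, by class of gene length in kb; bars start at 0. In genes of 500 kb and over the shares are 5.09% at an end and 28.2% in the span.

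The longest genes that hold isolated peaks differ in function. Lrp1b, a lipoprotein receptor relative of 2058 kb, had 6 isolated peaks among the 22 in its span. Cntnap2, which encodes the axonal protein Caspr2, had 2 of 34, and Ptprd, a synaptic receptor phosphatase, had 1 of 39. Dpp10, a potassium channel auxiliary subunit, had 2 of only 7 peaks over 1514 kb. Fhit and Macrod2, which encode hydrolases, had 2 of 27 and 1 of 41. Csmd1 had 1 of 24, Ctnna3 1 of 15 and Pcdh15, a protocadherin of hair cells, 1 of 14. Of these genes, only Lrp1b had an isolated peak at an end of its annotated span. An isolated peak of Dpp10 (2337 bp) lay over a listed start inside its span. Naaladl2, named after its value was seen, came next to Lrp1b in number with 4 of 12.

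Lists of genes by function were read against the 0.725% of all protein-coding genes with an isolated end peak, beginning with ion channels and receptors. All list counts use the ends of annotated gene spans. An isolated peak over a start inside the span is not counted, as at Zfp804a (2626 bp) and Cdh18 (1709 bp). Potassium channel genes had an isolated end peak in 4 of 92 (4.35%): Kcnn2, a calcium-activated channel (2930 bp), Kcnb2, a delayed rectifier (1748 bp), Kcnv1, a modifying subunit (1277 bp), and Kcnab1, a beta subunit (325 bp). Gabrg1, the GABA-A receptor gene whose promoter is printed above, had an isolated end peak of 1668 bp. Glutamate receptor genes had none at an end in 26, and 4 of 26 (15.4%) had one in the span, against 1.21% of all protein-coding genes; their median length was 279 kb, and 8.50% of genes of 200 to 500 kb had one. Sodium and calcium channel genes had none in 39 at either place. The counts are small, and with a single list of peaks no excess over all genes was tested.

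Adhesion and guidance genes followed. Leucine-rich repeat adhesion genes had an isolated end peak in 2 of 36 (5.56%), Lingo2 (2160 bp) and Lrrtm4, a synaptic partner of neurexins (1520 bp). Of neurexins, neuroligins, contactins, teneurins and latrophilins, 1 of 25 had one, Cntn4 (1193 bp), and 5 of 25 (20%) had an isolated peak in the span. The median length of these genes was 649 kb, and 28.2% of all genes of 500 kb and over had an isolated peak in the span. Among cadherins and protocadherins it was 2 of 90, Cdh12 (872 bp) and Pcdhb17 (35 bp). Among axon guidance genes it was 1 of 69, Sema3d, a secreted semaphorin (1562 bp). Fibroblast growth factor, Wnt and Bmp ligands had 1 of 59, Fgf10 (3048 bp). The members in these lists are mostly wide peaks at starts, with Pcdhb17 the exception at 35 bp.

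Transcription factor lists were read against the same 0.725% of all protein-coding genes. Zinc finger genes with Zfp symbols had 6 of 415 (1.45%). The widest of these end peaks lay at Zfp40 (1385 bp), Zfp804b (1379 bp), Zfp141 (964 bp) and Zfp317 (947 bp). Homeobox genes had 1 of 165 (0.606%, close to the overall share), Alx1, a factor of craniofacial development (2333 bp). Of the 165, 97.0% had a peak of some kind at an end. None of 59 Sox and forkhead genes and none of 40 proneural and related bHLH genes had an isolated end peak. The same was true of 19 striatal projection neuron factors, 18 genes of mature striatal neurons, 15 ganglionic eminence factors and 15 cortical lineage genes. In those 4 lists 89.5 to 100% of genes had an end peak of some kind, and 1 striatal projection neuron factor had an isolated peak in its span. At the overall rate each list here without an isolated end peak holds less than 1 such gene, so the counts of 0 show no difference.

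Housekeeping and metabolic lists were also read against the 0.725% of all protein-coding genes. Mitochondrial ribosome and respiratory chain genes had an isolated end peak in 2 of 176 (1.14%), Ndufaf5 and Cox7c, a subunit of cytochrome oxidase (1072 bp). Ubiquitin and proteasome genes had 2 of 123 (1.63%), Ube2e2, a conjugating enzyme (1859 bp), and Usp40, a deubiquitinase (1106 bp). Solute carriers had 2 of 362 (0.552%), Slc9a2 (1781 bp) and Slc22a29 (1323 bp). No isolated end peak was found at 94 ribosomal protein, 116 histone, 99 cytochrome P450 or 66 orphan G protein coupled receptor genes, nor at the 13 housekeeping genes. Of 305 keratin, defensin, Skint, kallikrein, serpin and Ugt genes 3 (0.984%) had one: Serpini1 (2488 bp), and Ugt2a1 and Ugt2a2, which share a peak of 264 bp. Glial (13 genes), microglial (12), endothelial and mural (12) and liver (14) lists also had none. At the overall rate, the lists with none are too small for that to show a difference.

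Olfactory receptor genes made up a large share of the genes around isolated peaks. The stretches from the peak before to the peak after each member covered 454 Mb together, 18.9% of the autosomal span, and held 1736 whole protein-coding genes (8.44% of all). Olfactory receptors were 673 of these 1736 (38.8%), and 61.0% of the 1103 autosomal olfactory receptor genes lay in such a stretch. These shares are partly fixed by the rule, because gene clusters with few peaks leave long gaps. A single stretch held 194 of the 673. None of the 1103 had an isolated peak at an end and 1 had one in its span, where 9 (0.816%) had any end peak. Of all protein-coding genes with an end peak 1.05% had an isolated one, so none among 9 shows no difference. Vomeronasal receptors lay in a stretch in 56 of 349 (16%), and none had an isolated end peak. Only 3 of the 349 (0.860%) had any end peak, so this 0 shows no difference either. The 25 members whose stretch held a whole olfactory receptor gene had a median width of 325 bp. Most stretches, 711 of 978 (72.7%), held no whole protein-coding gene, but only 114 (11.7%) held no whole gene of any class. Genes that lie only partly in a stretch are not counted here.

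Non-coding gene classes differed in how they were marked. Ends of long non-coding RNA genes held 40 members (4.09%, interval 2.94 to 5.53%), against 7.31% of other peaks. Many of these peaks also lay at a protein-coding end: 21 of the 40 members did not, nor did 4239 of the 6179 other peaks. Ends of pseudogenes held 21 members (2.15%, interval 1.33 to 3.26%), against 0.761% of other peaks. Some of these members also lay at the end of a gene of another class, such as the peak at Xkr4 (2387 bp). Pseudogene members ranged in width from 89 bp at Cyp2j15-ps to 6280 bp over Rn18s-rs5. Between these lay Gm18078 (797 bp), Gm16425 (463 bp) and Rbm3-ps (342 bp), and the named examples were chosen after their values were seen. Some of the pseudogenes sit among copies of the same family, as Cyp2j15-ps does near Cyp2j11. The handling of reads shared between copies is not given. Of 374 V segments of immune receptors, 61.8% lay whole in a stretch around a member, a share the rule partly fixes. Of the 374, 6 had an end peak. At 2 of these 6, the T cell receptor segments Trav8n-2 and Trav3-3, isolated peaks were 390 and 361 bp wide.

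The 618 members between genes were spread over 412 nearest protein-coding genes. Their median distance to that gene was 329 kb: 81 (13.1%) lay within 100 kb, 211 (34.1%) beyond 500 kb and 73 beyond 1 Mb. The genes most often nearest, assigned by distance alone and named after counting, were 10 genes with at least 5 members each. Pcdh9, a protocadherin, was nearest to 8 members at 106 to 2065 kb. Pcdh17, another protocadherin, Pabpc4l and Sis were each nearest to 6. Epha7, an ephrin receptor, Slit2, a secreted guidance cue, Kcnt2, Igfbp7, a secreted binding protein, Pla2g4a, a phospholipase, and Pom121l12 were each nearest to 5. All other genes were nearest to 4 members or fewer. The widest members away from gene ends after the one near Gm2244 lay inside Kcnh7, a potassium channel (2931 bp), inside Zfp804a over its listed start (2626 bp), and between genes at chr1:94502176-94504693 (2517 bp).

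Promoters under isolated peaks were less CG-dense than those under other peaks. Over 104 RefSeq promoters of 92 protein-coding genes, the median was 15.5 CG dinucleotides per 300 bases (quartiles 8 and 23) and the median GC content 57%. Under other peaks it was 21 (quartiles 13 and 29) and 62% over 13099 promoters, and under no peak 3 (quartiles 1 and 5) and 46.7% over 6882. CpG-rich promoters made up 52 of 104 under isolated peaks (50%), 69.6% under other peaks, 2.37% under none and 46.5% of all. Isolated peaks over a CpG-rich promoter had a median width of 1650.5 bp (n = 42), and those over other promoters 1120 bp (n = 43). Promoters of 1 gene or of a divergent pair can share a peak and overlap, so they are not independent.

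Short motifs were counted on both strands in the same 300-base promoters, where a match is only a match of letters. No motif searched contains another. The GC box (GGGCGG) was present in 47.1% of promoters under isolated peaks, 66.5% under other peaks and 47.0% of all 20085 promoters. The TATA box (TATAAA) was present in 9.62%, 6.41% and 12.7%, and the CCAAT box (CCAAT) in 37.5%, 37.2% and 38.1%. The ETS core (CCGGAAG) was present in 13.5%, 16.8% and 11.9%, and the NRF1 core (CGCATGCG) in 6 promoters (5.77%), 3.68% and 2.54%. The TALE core (TGACAG), of the class that Meis factors recognise, was present in 20.2%, 16.2% and 18.4%. The homeodomain core (TAATTA), of the class that Dlx factors recognise, was present in 1 promoter (0.962%), 2.39% and 4.48%. That promoter was the Gabrg1 sequence printed above, which also holds a CCAAT box. The printed promoters of St8sia4, Zfp804a, Fgf10 and Mpc2 each hold a GC box.

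Chromosomes differed in how many of their peaks were isolated. The share ranged from 0.553% on chromosome 11 (32 of 5789) to 1.80% on chromosome 14 (62 of 3442), with chromosomes 3 (1.77%) and 1 (1.69%) close to the latter. Across the 19 autosomes the share was lower where protein-coding genes were denser (Pearson r = -0.81, Spearman rho = -0.75, described without a test). The points share 1 peak list, and peaks per Mb, which set the gaps, also vary between chromosomes. Chromosomes 7 and 11, with 14.2 and 13.5 protein-coding genes per Mb, had 0.618 and 0.553%.

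**Figure D4:**
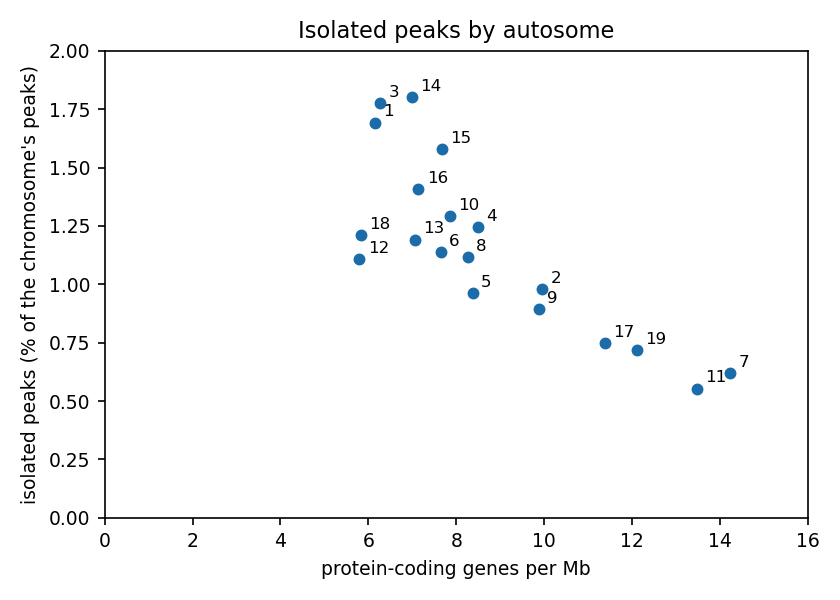
Isolated peaks as a percent of each autosome's peaks against protein-coding genes per Mb, with 1 point per chromosome labelled by its number. Chromosomes 7 and 11, the densest in genes, have 0.618 and 0.553%, and chromosomes 14, 3 and 1 have 1.69 to 1.80%.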

How the data were processed

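Single-nucleus ATAC-seq of 2 libraries in 1 group gave 1 deposited list of peak positions in mm10. The values the authors deposited are positions alone, with no count, score or sample, so depth and its precision are unknown. The submitters' processing notes name Cell Ranger ATAC 1.2.0 and Signac without saying what each did. The peak caller, whether the libraries were pooled first and how doublets were treated are not given in the sources used here. Printed positions are the deposited ones, and their base (0 or 1) is unknown.

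Gaps were measured edge to edge, and the first and last peak of a chromosome could not be members. Gene spans were those of RefSeq on GRCm38.p6, from which 402 of 49997 entries on scaffolds or on no main chromosome were left out. Strand and promoter sequence came from a RefSeq promoter table that matched 16457 of 20047 protein-coding genes on autosomes other than 18, and chromosome 18 was not used for start counts. With 1 peak list there was no test, and shares carry exact 95% binomial intervals. Scripts were tested on simulated data. Python 3.11.15, pandas 2.3.3, numpy 2.4.6 and scipy 1.17.1 were used.

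The members and the 32 gene lists were chosen with earlier results of these data known. By rule, the text names the 10 widest and 10 most isolated members, the 5 narrowest, 3 on each side of the limit, up to 4 genes per list with the widest isolated end peak, the 10 longest genes holding a member, and promoters under the widest members. Some items that this rule selects are not reported here. Alternatives changed the gap limit, the gene-end window and the peaks used.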

Additional observations from a re-analysis of the deposited data

Results flagged for a closer look

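Chromosome X lies outside the rule, and its peaks were not used above. Measured in the same way, 122 of its 1605 peaks (7.60%) had gaps over 100 kb on both sides, against 1.14% of autosomal peaks. They had a median width of 695.5 bp, and 49 (40.2%) lay at a gene end, against 439 bp and 18% in the autosomal members. The difference has no replicate and was not tested.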

How the results depend on the processing

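The limit of 100 kb and the set of peaks used decided how many peaks were isolated. With a limit of 50 kb there were 3484 members, with a median width of 471.5 bp, 21.0% at gene ends and 639 protein-coding genes with an isolated end peak. With 200 kb there were 239 members, 12.1% at gene ends and 20 genes. Removing all peaks narrower than the median before measuring gaps gave 1710 members, a median of 954.5 bp, 36.7% at gene ends (other peaks 37.5%) and 606 genes. A window of 2500 bp gave 21.2% at gene ends, and protein-coding genes alone 13.8%. Split by position, the median was 1136.5 bp at gene ends and 401 bp away from them. In 11 of 11 settings the gene-end share was lower in isolated than in other peaks, and in 7 of 7 the median width was lower. The list counts moved too: with narrow peaks removed, potassium channel genes with an isolated end peak numbered 14, and with 200 kb 2. Olfactory receptors with an isolated end peak went from 0 to 3 with a limit of 50 kb or a window of 2500 bp. Leaving out a library was not possible, because both share 1 list. No paired analysis was possible because the list carries no sample. Depth is unknown, so a gap can hold accessible regions below the depth needed for a call.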
